A study of Mus musculus with 6 samples.

Results

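Expression of 10 membrane trafficking genes was compared between D2.OR cells with and without a hairpin against SLX4IP. D2.OR is a mouse line from a mammary carcinoma. The genes were Rab2a, Rab18, Arf5, Bet1, Stx17, Golph3, Clta, Chmp5, Sdcbp and Snx30, given as a list of mouse symbols and taken from the table by Ensembl identifier. All 10 were found among the 53647 features of the table, and all 10 were among the 8127 features tested. The cells carried a lentiviral scrambled short hairpin RNA (Scram, 3 libraries) or a hairpin against SLX4IP (shSLX4IP, 3 libraries) and were selected with puromycin. Both groups were grown on Cultrex, a basement membrane extract, in 3D culture for 7 days. They were seeded at 31500 cells per cm2 in medium with 10% serum and 5% Cultrex, and 1 µg of RNA per sample went into a stranded mRNA library kit. The labels do not name the hairpin sequence, and they call the replicates biological without saying what was prepared separately. The p-values therefore measure the spread between these libraries, which can be in part technical.

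Membrane trafficking moves proteins and lipids between the endoplasmic reticulum, the Golgi apparatus, endosomes, lysosomes and the cell surface. Small GTPases of the Rab and Arf families mark membranes and recruit effectors, and coat proteins such as clathrin shape the carriers. SNARE proteins then fuse the carriers with their target, while sorting nexins and ESCRT proteins sort cargo at endosomes.

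Each library held between 5433573 and 6693111 reads, recovered from the deposited values, which are whole reads times a constant of each library (the inverse of a size factor). These deposited values are called normalised read counts. Symbols were read only for genes in 4 chromosome regions in which high values were dense along the annotation, and in the mitochondrial genome, called placed genes. Outside them, 39 of 75 ribosomal protein genes, as well as Actb, Eef1a1 and Ppia, genes that nearly all cells use, were listed at 0 in all 6 libraries, and none of the 75 had a mean of 1000 or more. The 2 placed ribosomal protein genes, Rps20 and Rpl30, had means of 43370 and 11561 (these genes were looked up after the values were seen). Identifiers outside the regions were therefore not read as genes, and shares over all features tested, of which 462 were placed, describe rows of the table. The shares over placed features are those over named genes. The members lie on the starts of chromosomes 4, 6, 15 and 18 of GRCm38. Slx4ip itself lies outside and was listed at 0 in all 6 libraries, so the depletion could not be checked. Of 13 cell type markers looked up, 2 were placed, both of the mesenchymal list, and no epithelial marker was, so the epithelial origin of the line could not be checked. Col1a2 was at 20226 to 25022 in Scram and at 239 to 302 in shSLX4IP, Zeb1 was at 349 to 961 and at 1423 to 1484, and their part in the results was not tested. In such bulk libraries, fewer cells of a type and less RNA per cell cannot be told apart.

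The library Scram A stood apart from Scram B and C. Its deposited values summed to 8.95e+06, against 5.28e+06 to 5.97e+06 in the other 5 libraries, because 1 read was worth 1.46 in it and 0.796 to 0.976 elsewhere. It also had fewer features above 0, at 8464, against 10548 to 11611 in the other 5 libraries. Rescaling does not change this, and its cause was not tested. Results that rest on Scram A are therefore given also without it and as RPM, recovered reads scaled to an equal total per library, which does not use the size factors. Values of single libraries are listed in the order A, B, C, Scram first. The column letters name libraries within a group and do not tie a Scram library to a shSLX4IP library.

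Of the 10 members, 4 fell and 1 rose in shSLX4IP at an adjusted p under 0.05 (limma, Benjamini-Hochberg over all 8127 features). Snx30, a sorting nexin, fell most, to 23.7% of its Scram level (the ratio of geometric means of value + 1). Golph3, Rab2a and Rab18 fell to 54.3%, 51.6% and 72.0%. Stx17, a SNARE of autophagosomes, rose to 201% of its Scram level. Over all features tested 11.3% were called lower and 11.7% higher, and over placed features 22.9% and 17.3%. The other 5 members did not pass. The median log2 fold change, as shSLX4IP over Scram of value + 1, was -0.61 over the members, 0.25 over all features tested and -0.23 over placed ones. The members were chosen with earlier results of these data known, so such comparisons do not test whether they differ from other features. The lowest mean of a member was 1344 (Bet1), while features were tested from a mean of 10.

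Scram and shSLX4IP libraries were fully separated in 8 of the 10 members, 7 lower and 1 higher, against 53.5% of all features tested (23.4% lower, 30.2% higher) and 67.1% of placed ones (39.4% lower, 27.7% higher). Arf5 and Chmp5 were the members whose groups overlapped. Log2 fold changes were below 0 in 9 of 10 members, against 43.2% of all features and 58.4% of placed ones. In RPM, the groups did not overlap in 5 of 10 members, against 54.4% of all features tested and 63.0% of placed ones. On that scale 3 members fell and 1 rose in limma, against 9.63% and 16.8% of all features and 20.1% and 22.7% of placed ones. RPM moved the median log2 fold change of all features from 0.25 to 0.51, and quantile normalisation moved it to -0.0028. The median of the members was -0.26 in RPM and -0.16 after quantile normalisation, and 1 member rose and 2 fell after the latter, against 12.7% and 15.6% of all features tested.

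**Figure D1:**
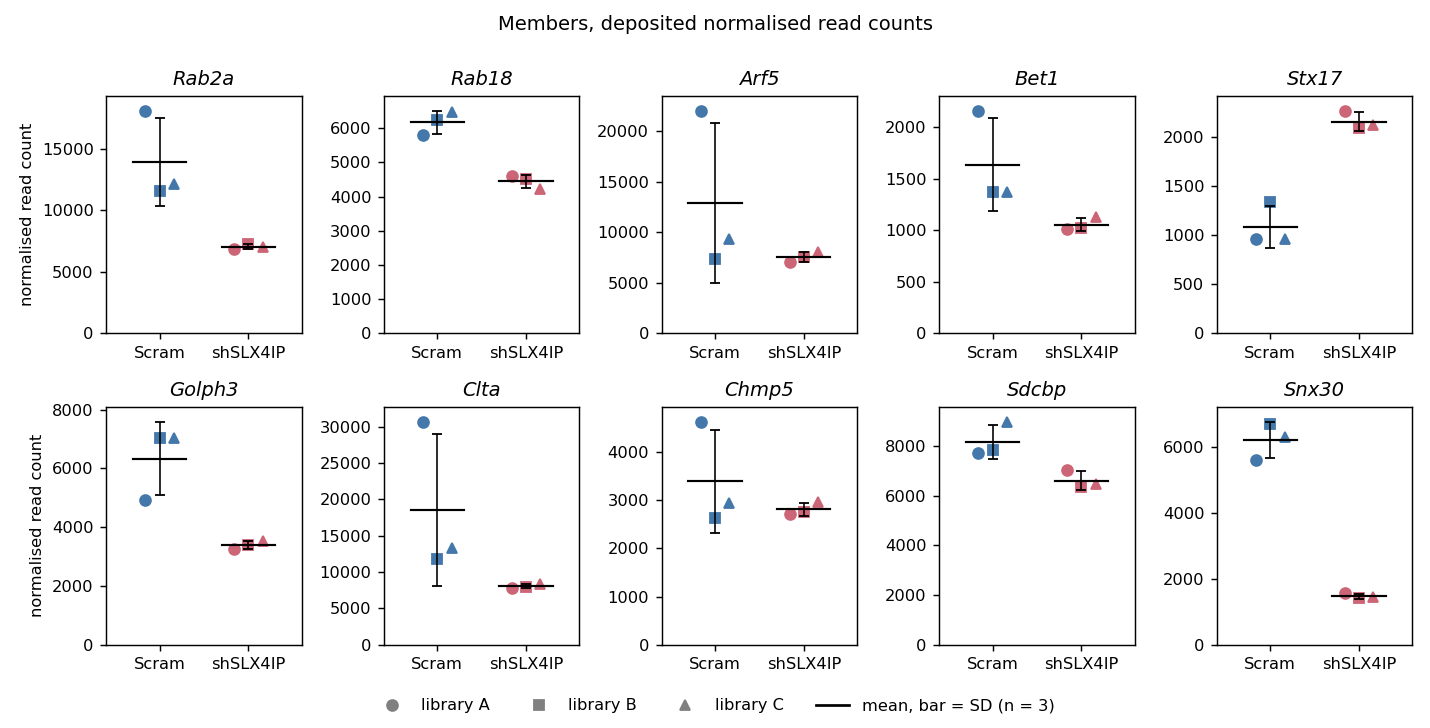
Deposited normalised read counts of the 10 members (vertical axes from 0), with 1 point per library, and the mean and SD of 3 libraries per group. In Snx30 the Scram libraries lie between 5626 and 6708 and the shSLX4IP libraries between 1413 and 1556, while in Arf5 and Clta the point of Scram A lies far above the others.

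**Figure D2:**
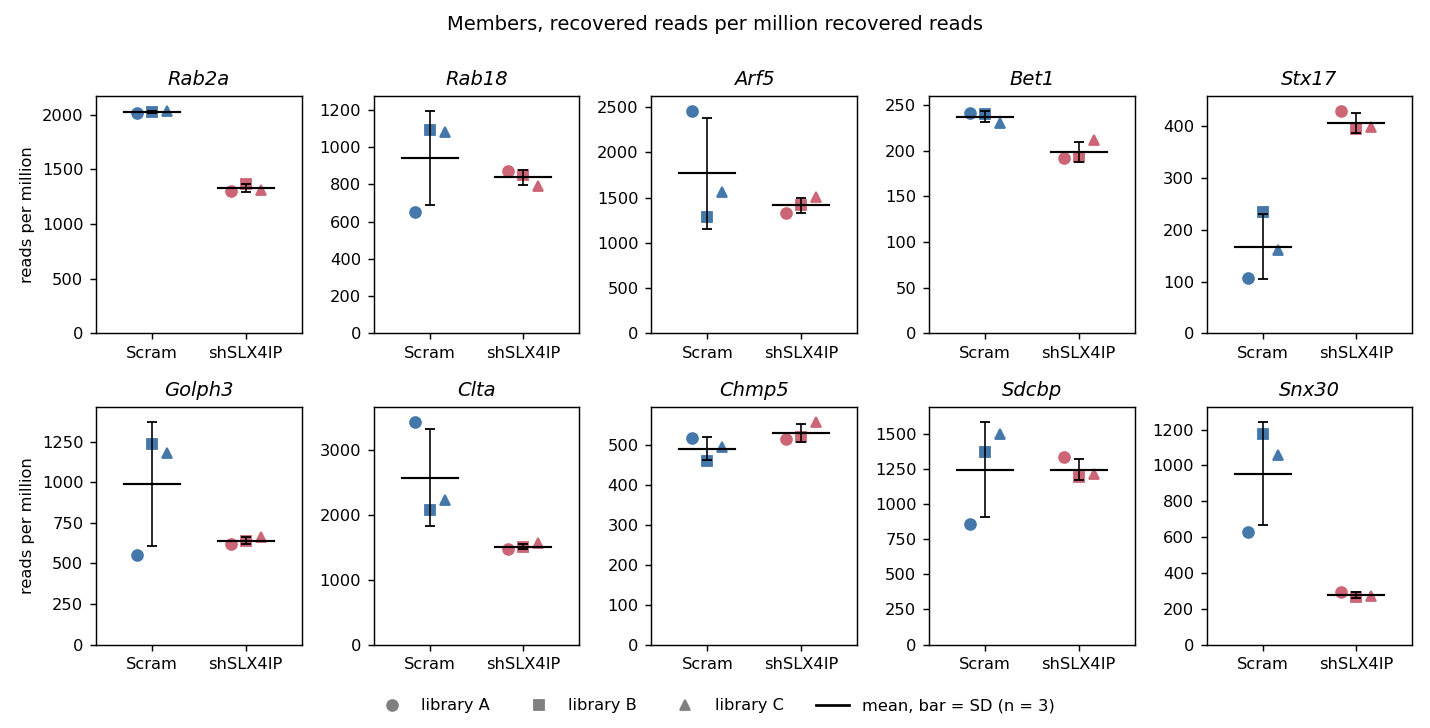
The same members as RPM of recovered reads (vertical axes from 0), with 1 point per library, and the mean and SD of 3 libraries per group. Rab2a lies between 2020 and 2033 in the Scram libraries, whereas Golph3, Rab18 and Sdcbp have their lowest point in Scram A, below each shSLX4IP library.

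The sequences upstream of 3 members are shown because Snx30 and Golph3 had falls and Stx17 the one rise among the called members. They come from RefSeq on GRCm38.p6, which had windows of 250 bases before to 50 bases after a start site for 7 of the 10 members (8 windows, Clta having more than 1), and not for Rab2a, Rab18 and Sdcbp. Each is printed 5′ to 3′ on the plus strand, from the start of its window to the base before the RefSeq start site (Snx30) or before the gene start in the annotation (Golph3 and Stx17). Capitals mark matches on either strand to CACGTG (E-box), GGGCGG (Sp/KLF box), TGACGT (a half-site of the cAMP response element) or GCGCATG (a half-site of NRF1). The regions are chr4:59805400-59805649 for Snx30, chr15:12321246-12321449 for Golph3 and chr4:48124669-48124914 for Stx17.
Snx30: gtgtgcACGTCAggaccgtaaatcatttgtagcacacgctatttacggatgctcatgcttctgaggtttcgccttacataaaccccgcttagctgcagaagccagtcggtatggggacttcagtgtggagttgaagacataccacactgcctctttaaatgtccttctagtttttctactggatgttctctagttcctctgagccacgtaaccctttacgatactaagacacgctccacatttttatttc
Golph3: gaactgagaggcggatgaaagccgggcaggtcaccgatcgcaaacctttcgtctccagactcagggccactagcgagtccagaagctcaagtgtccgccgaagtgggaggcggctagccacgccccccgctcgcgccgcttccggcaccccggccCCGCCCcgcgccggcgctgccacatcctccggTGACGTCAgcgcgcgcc
Stx17: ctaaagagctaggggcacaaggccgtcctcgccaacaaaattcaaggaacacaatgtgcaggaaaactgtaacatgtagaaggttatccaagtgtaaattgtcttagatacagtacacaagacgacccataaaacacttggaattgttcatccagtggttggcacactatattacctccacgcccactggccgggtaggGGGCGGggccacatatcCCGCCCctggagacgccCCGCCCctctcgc

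The 3 stretches differed in these matches. The Golph3 window held the response element half-site on both strands, at positions -63 and -61 from the RefSeq start site, so that both overlap as 1 palindrome. It also held 1 Sp/KLF box. The Stx17 window held 3 Sp/KLF boxes, at positions -51, -34 and -17. The Snx30 window held 1 response element half-site, at position -244, and none of the other motifs. The GC content of its whole window was 46.0%, against 54.7% for Stx17 and 71.3% for Golph3. The Snx30 window ended at base 59805699, before the annotated gene start at 59805840, while the windows of Golph3 and Stx17 spanned theirs. The stretches compared are therefore not alike in their place relative to the annotated gene start. Among all 32851 promoter windows of RefSeq, 35.7% held the Sp/KLF box, 7.51% the response element half-site, 7.15% the E-box and 3.91% the NRF1 half-site. Of the 8 member windows, 6 held the Sp/KLF box, 3 the response element half-site, 1 the E-box (Arf5) and 1 the NRF1 half-site (Chmp5). A match describes these letters and is not a binding site.

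The GTPases Rab2a and Rab18 fell and Arf5 did not pass the test. Rab2a (ENSMUSG00000047187.10, chromosome 4, 8535644 to 8607778, plus strand) acts in traffic between the endoplasmic reticulum and the Golgi and on late endosomes. Its normalised read counts were 18073, 11560 and 12145 for Scram and 6881, 7264 and 6986 for shSLX4IP. Each Scram library lay above each shSLX4IP library, and Scram A was the highest. Limma gave a log2 fold change of -0.95 (SE 0.20, limma adjusted p = 0.0223). In RPM Rab2a was at 2020, 2025 and 2033 in Scram and at 1304, 1369 and 1311 in shSLX4IP, so the excess of Scram A was not seen on that scale. The log2 fold change was then -0.61 (limma adjusted p = 0.00528), and it was -0.75 without Scram A (limma adjusted p = 0.000912). After quantile normalisation it was -0.38 and did not pass (limma adjusted p = 0.0572).

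Rab18 (ENSMUSG00000073639.7, chromosome 18, 6733905 to 6794429, plus strand), a GTPase of the endoplasmic reticulum and of lipid droplets, had the narrowest Scram values of the members. These were 5815, 6238 and 6464, and the shSLX4IP libraries had 4597, 4510 and 4227. The groups did not overlap, and the log2 fold change was -0.47 (SE 0.11, limma adjusted p = 0.0336). This call was kept in 8 of the 18 other settings, and the scale was only 1 of the choices on which it depended. With no filter, for example, it did not pass (limma adjusted p = 0.0742). In RPM Rab18 was at 650 in Scram A, below 871, 850 and 793 in shSLX4IP, while Scram B and C were at 1092 and 1082. Limma gave a log2 fold change of -0.13 on that scale (limma adjusted p = 0.683) and 0.023 after quantile normalisation (limma adjusted p = 0.949). Without Scram A it was -0.52 (limma adjusted p = 0.00349).

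Arf5 (ENSMUSG00000020440.14, chromosome 6, 28423560 to 28426602, plus strand), a GTPase of the Arf family that acts on Golgi membranes, differed more within Scram than between the groups. The Scram libraries had 21960, 7322 and 9351 and the shSLX4IP libraries 7035, 7497 and 7997. Scram B lay within the range of shSLX4IP, so the groups overlapped. The log2 fold change was -0.61 with a 95% interval of -1.64 to 0.41 (limma adjusted p = 0.311). It was -0.14 without Scram A and -0.27 in RPM (limma adjusted p = 0.404 and 0.434). Its exons share 313 bases, 16.4% of its exonic length, with the golgin gene Gcc1 on the other strand. Reads of such a pair cannot be told apart if the counting did not use strand.

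Both SNARE genes were among the lowest members per length, and only Stx17 passed the test. Stx17 (ENSMUSG00000061455.14, chromosome 4, 48124915 to 48186507, plus strand) encodes syntaxin 17, which sits on completed autophagosomes and takes part in their fusion with lysosomes. The Scram libraries had 964, 1335 and 962 and the shSLX4IP libraries 2265, 2091 and 2120. Each shSLX4IP library lay above each Scram library. Limma gave a log2 fold change of 1.01 (SE 0.18, limma adjusted p = 0.0141). It was larger in RPM, at 1.35 (limma adjusted p = 0.0220), and after quantile normalisation, at 1.30 (limma adjusted p = 0.00927). It was 0.99 with edgeR and with DESeq2, and 0.93 without Scram A (limma adjusted p = 0.009). In RPM the Scram libraries were at 108, 234 and 161 and the shSLX4IP libraries at 429, 394 and 398. The call was lost without Scram C or any 1 shSLX4IP library (limma adjusted p = 0.0532 to 0.0668), with a log2 fold change of 0.93 to 1.03.

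Bet1 (ENSMUSG00000032757.7, chromosome 6, 4076899 to 4086972, minus strand), a SNARE of transport from the endoplasmic reticulum to the Golgi, had 2156, 1372 and 1375 normalised reads in the Scram libraries. The shSLX4IP libraries had 1011, 1024 and 1125. The groups did not overlap, but the log2 fold change of -0.60 did not pass (95% interval -1.15 to -0.05, limma adjusted p = 0.105). It passed without Scram A, at -0.38 (limma adjusted p = 0.0161). In RPM Bet1 was at 241, 240 and 230 in Scram and at 192, 193 and 211 in shSLX4IP, with no overlap and a log2 fold change of -0.26 (limma adjusted p = 0.199).

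Golph3 (ENSMUSG00000022200.9, chromosome 15, 12321450 to 12351591, plus strand) encodes a phosphoinositide-binding protein of the trans-Golgi that retains glycosyltransferases there. The Scram libraries had 4916, 7051 and 7051 and the shSLX4IP libraries 3267, 3381 and 3535. Here Scram A was the lowest Scram library, and it still lay above each shSLX4IP library. The log2 fold change was -0.88 (SE 0.18, limma adjusted p = 0.0216). In RPM Scram A was at 549, below 619, 637 and 663 in shSLX4IP, whereas Scram B and C were at 1235 and 1180. On that scale the log2 fold change was -0.54 and did not pass (limma adjusted p = 0.256), and without Scram A it was -1.06 in the deposited values (limma adjusted p = 0.000491). Its exons share 450 bases, 13.8% of its exonic length, with 1810049J17Rik on the other strand, whose mean value was 169.

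Clta (ENSMUSG00000028478.19, chromosome 4, 44004452 to 44032846, plus strand), the clathrin light chain a gene, had the highest level per length of the members. The Scram libraries had 30624, 11807 and 13304 and the shSLX4IP libraries 7775, 7929 and 8315. All Scram libraries lay above all shSLX4IP libraries, but Scram A was far above the other Scram libraries. The log2 fold change of -1.08 did not pass with all 6 libraries (SE 0.37, limma adjusted p = 0.0910). Without Scram A the difference was smaller, at -0.65, and passed (limma adjusted p = 0.00298). It passed also in RPM, at -0.73 (limma adjusted p = 0.0461), and after quantile normalisation, at -0.51 (limma adjusted p = 0.0456).

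Of the 3 genes of endosomal sorting, Snx30 had the largest difference and Chmp5 the smallest among the members. Snx30 (ENSMUSG00000028385.15, chromosome 4, 59805840 to 59904737, plus strand) encodes a sorting nexin that bends membranes and acts with other sorting nexins in recycling from endosomes and in autophagy. The Scram libraries had 5626, 6708 and 6305 and the shSLX4IP libraries 1556, 1413 and 1447. The lowest Scram library lay far above the highest shSLX4IP library. Limma gave a log2 fold change of -2.07 (SE 0.13, limma adjusted p = 0.000515). Snx30 is the one member that passed in each of the 18 other settings, with log2 fold changes of -2.26 to -1.65 and an adjusted p of at most 0.00626 (the count tests of edgeR and DESeq2 among them). In RPM it was at 629, 1175 and 1055 in Scram and at 295, 266 and 271 in shSLX4IP. It is the last gene of its chromosome region, and the next protein-coding genes, Slc46a2 and Mup4, were listed at 0. Snx30 had a mean of 3842, so its own level took part in setting the end of the region that places it. Its exons share 240 bases with the pseudogene Gm12543 on the same strand.

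Sdcbp (ENSMUSG00000028249.16, chromosome 4, 6365650 to 6408423, plus strand) encodes syntenin, a scaffold that binds syndecans and takes part in exosome formation. The Scram libraries had 7722, 7859 and 8970 and the shSLX4IP libraries 7047, 6349 and 6464. The groups did not overlap, but Scram A and shSLX4IP A were close. A log2 fold change of -0.30 did not pass (SE 0.12, limma adjusted p = 0.122), and it was -0.34 without Scram A (limma adjusted p = 0.0316). Its sign turned in RPM (0.040) and after quantile normalisation (0.24). In RPM Scram A was at 863, below 1336, 1197 and 1213 in shSLX4IP, while Scram B and C were at 1376 and 1501. The exons of Sdcbp share 78 bases with Nsmaf on the other strand.

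Chmp5 (ENSMUSG00000028419.6, chromosome 4, 40948407 to 40965303, plus strand), whose product acts with ESCRT-III in the formation of multivesicular bodies, had 4627, 2626 and 2955 normalised reads in the Scram libraries. The shSLX4IP libraries had 2714, 2756 and 2967. Scram B lay below the shSLX4IP range and Scram C within it. The log2 fold change was -0.23 with a 95% interval of -0.82 to 0.35 (limma adjusted p = 0.483). Without Scram A it was 0.013, and in RPM 0.11 (limma adjusted p = 0.488).

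**Figure D3:**
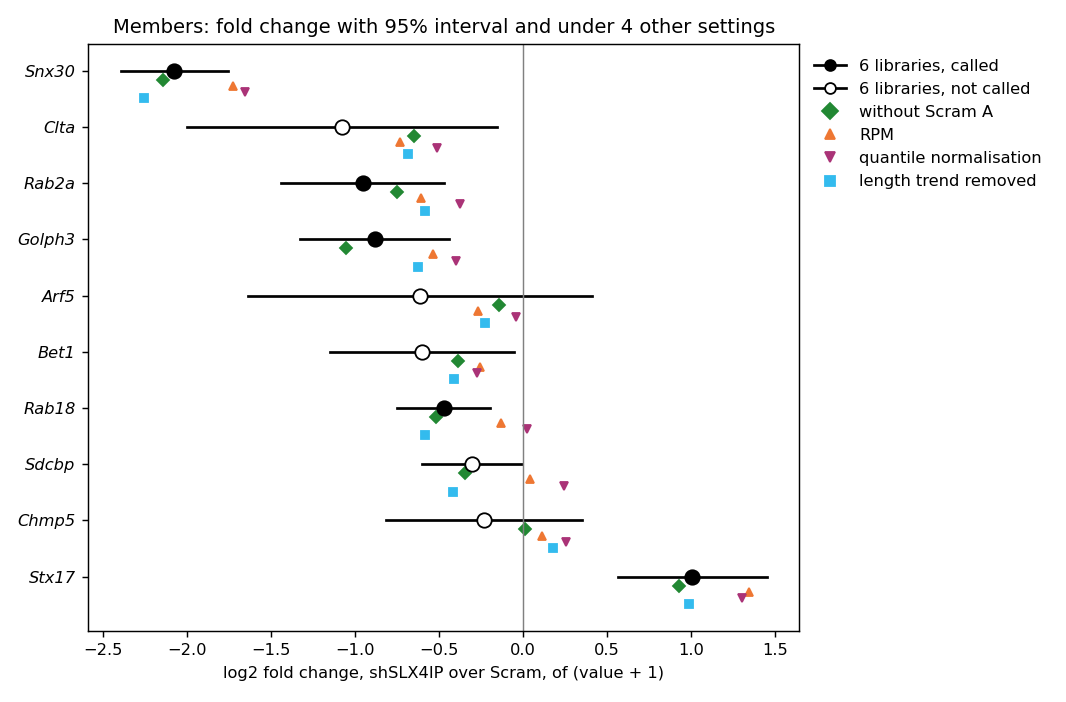
Log2 fold change (shSLX4IP over Scram, horizontal axis) of each member. Circles with 95% intervals use the deposited values of all 6 libraries, filled where adjusted p was under 0.05, and coloured marks below them give 4 other settings. Rab18, Sdcbp and Chmp5 have marks on both sides of 0, Chmp5 from -0.23 to 0.26, and the other 7 members do not.

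Ratios between members within a library do not depend on its size factor, and were read as a description chosen after the values were seen. Snx30 over Stx17 was 5.84, 5.03 and 6.56 for Scram and 0.687, 0.676 and 0.682 for shSLX4IP. These ratios of counts, not per length, were thus above 1 in each Scram library and below 1 in each shSLX4IP library. Bet1 over Stx17, both SNARE genes, was 2.24, 1.03 and 1.43 in Scram and 0.446, 0.490 and 0.531 in shSLX4IP. The 2 groups did not overlap in either ratio. This followed from the single genes, as Snx30 and Bet1 were lower and Stx17 higher in each shSLX4IP library than in each Scram library. Shares over ratios of other gene pairs were not computed. Clta over Arf5 was 1.39, 1.61 and 1.42 in Scram and 1.11, 1.06 and 1.04 in shSLX4IP, again without overlap, although both genes were far higher in Scram A than in Scram B and C. Rab2a over Rab18 was 3.11 in Scram A, 1.85 and 1.88 in Scram B and C, and at most 1.65 in shSLX4IP. The 10 members together took 1.12% to 1.15% of the recovered reads of a Scram library and 0.834% to 0.848% of those of a shSLX4IP library. This total weighs members by their reads. In RPM the groups of 5 of the 10 did not overlap (54.4% of all features tested), among them Stx17, which rose.

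The order of the levels was compared per kilobase of annotated exonic length, which includes exons of all annotated isoforms. In shSLX4IP, Clta had 4448 ± 155 normalised reads per kilobase (mean ± SD, n = 3), followed by Arf5 at 3938 ± 252 and Rab2a at 3302 ± 92.8. The libraries of neighbours in this order did not overlap, except for Golph3 at 1042 ± 41.3 and Sdcbp at 959 ± 54.2. Snx30 was the lowest member in shSLX4IP, at 189 ± 9.64, with Bet1 at 282 ± 16.7 and Stx17 at 364 ± 15.7 above it. In Scram the lowest was Stx17 at 183 ± 36.2 per kilobase, below Bet1 at 438 ± 121 and Snx30 at 797 ± 70.2. Clta (10321 ± 5811), Arf5 (6753 ± 4159) and Rab2a (6529 ± 1689) were the highest there too, but their libraries overlapped. Those of Chmp5 and Golph3, and of Rab18 and Snx30, overlapped as well.

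Within Scram, the ratio of Scram A to Scram B and C was set beside exonic length. Rab2a, Clta, Arf5 and Chmp5, with exonic lengths of 2133, 1800, 1907 and 1519 bases, were 1.53, 2.44, 2.63 and 1.66 times as high in Scram A as in the mean of Scram B and C. Bet1, with 3730 bases, was 1.57 times as high. The 4 longest members, that is Stx17, Rab18, Sdcbp and Snx30, were at 0.839, 0.916, 0.918 and 0.865 times that mean, and Golph3, with 3257 bases, at 0.697. These are ratios of deposited values, in which 1 read was worth 1.46 in Scram A and 0.934 and 0.911 in Scram B and C. In RPM the Scram libraries had 2020, 2025 and 2033 for Rab2a, 3422, 2068 and 2227 for Clta, and 629, 1175 and 1055 for Snx30. Spearman's rho between exonic length and this ratio was -0.66 over the 10 members and -0.56 over 346 placed nuclear genes above a mean level of 100 and above 0 in each Scram library, which share these 3 libraries. The coefficient of variation of the members had a median of 22.8% in Scram and of 4.59% in shSLX4IP, and of 6.36% between Scram B and C. For 353 placed nuclear genes above that level, which include genes at 0 in a Scram library, these medians were 23.6%, 6.21% and 7.45%.

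**Figure D4:**
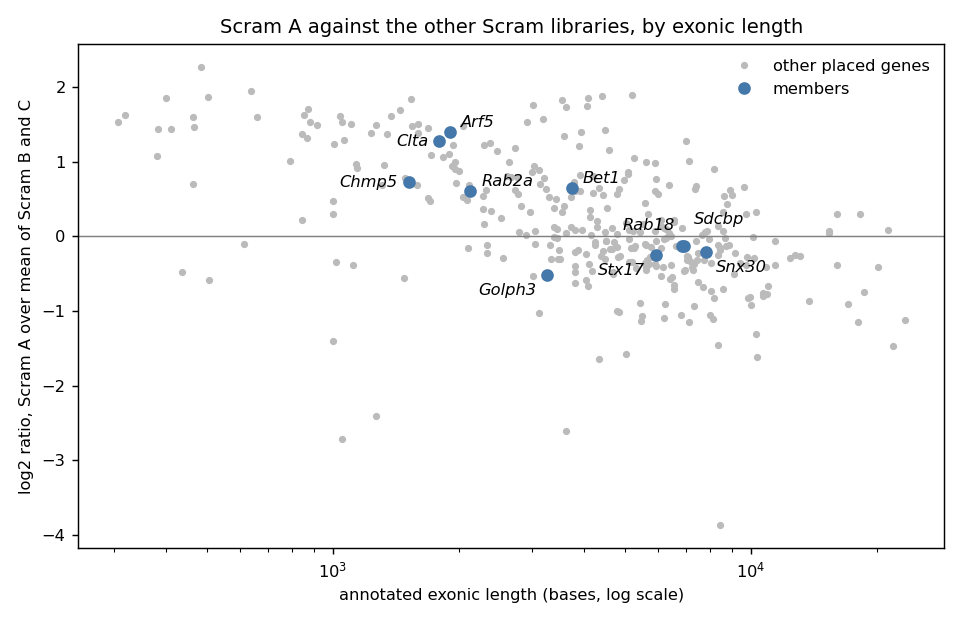
Log2 ratio of Scram A to the average of the other Scram libraries (vertical axis) against annotated exonic length on a log scale (horizontal axis), for placed nuclear genes above a mean level of 100 and above 0 in each Scram library (grey) and the members (blue). Members with short exonic length, such as Arf5 and Clta, lie above 0, and the 4 longest lie below it.

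Without Scram A, 7 members fell and 1 rose at the adjusted threshold of limma, against 19.4% lower and 23.3% higher of all features tested. Shares over placed features were not computed for this fit. With all 6 libraries they were 22.9% lower and 17.3% higher, against 11.3% and 11.7% of all features. The 7 were Clta, Rab2a, Golph3, Snx30, Rab18, Bet1 and Sdcbp, and Arf5 and Chmp5 again did not pass. With a trend with exonic length removed from each library, 6 members fell and 1 rose, against 32.9% and 30.4% of the 431 placed nuclear genes of that fit. Golph3 was then at -0.63 and did not pass (limma adjusted p = 0.0701). Without any 1 shSLX4IP library, or without Scram C, Snx30 alone passed. The shares of all features were then 5.04% to 6.02% lower and 5.33% to 7.89% higher.

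Other membrane trafficking genes were read from a list of gene name patterns. It matched 460 further genes, of which 14 were placed and 12 tested, since Cadps2 and Snx31 were listed at 0 in all 6 libraries. Of these 12 genes 3 fell, 2 rose and 7 did not pass (limma, with the background shares of calls given above). Their median log2 fold change was -0.28, beside 0.25 over all features and -0.23 over placed ones.

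Tbc1d2 fell and Ica1 rose with the largest differences of these genes. Tbc1d2, which encodes an activator of GTP hydrolysis by a Rab of late endosomes, was at 1236, 1194 and 1180 in Scram and at 115, 108 and 82.0 in shSLX4IP. Its log2 fold change was -3.56 (SE 0.20, limma adjusted p = 0.000443), and the groups lay far apart. Ica1, the islet autoantigen gene whose product has a membrane-bending BAR domain, was at 310, 183 and 218 in Scram and at 2527, 2685 and 2940 in shSLX4IP. This was a log2 fold change of 3.55 (limma adjusted p = 0.000635). Rgp1, which encodes a part of an exchange factor for a Golgi Rab, was at 1823 ± 121 and 1816 ± 74.3 (mean ± SD, n = 3), with a 95% interval of the log2 fold change of -0.32 to 0.31. Tbc1d2 and Ica1 passed in each of the 18 other settings.

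In the endosomal group Wasl rose and Laptm4b and Plekhf2 fell. Wasl, which encodes the actin regulator N-WASP that acts at endocytic membranes, was at 2472, 3208 and 3353 in Scram and at 5587, 5602 and 5558 in shSLX4IP (log2 fold change 0.90, limma adjusted p = 0.0124). The call was lost without any 1 shSLX4IP library (limma adjusted p = 0.0621 to 0.0648). Laptm4b, a membrane protein gene of late endosomes and lysosomes, was at 4985, 2102 and 2168 in Scram and at 1200, 1154 and 954 in shSLX4IP. Its log2 fold change was -1.37 (limma adjusted p = 0.0483), with Scram A the highest, and -0.96 without Scram A (limma adjusted p = 0.0038). In RPM it was -1.02 (limma adjusted p = 0.0222). Laptm4b passed in 10 of the 18 other settings. Plekhf2, an endosomal phosphoinositide-binding protein gene, was at 1305, 1239 and 1240 in Scram and at 704, 769 and 927 in shSLX4IP. Its log2 fold change was -0.67 (limma adjusted p = 0.0362), and Plekhf2 passed in 8 of the 18 other settings.

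The tethering genes did not pass in limma over all 8127 features with all 6 libraries. Gcc1, the golgin gene whose exons overlap those of Arf5, was at 958, 984 and 1116 in Scram and at 748, 720 and 642 in shSLX4IP (log2 fold change -0.53, limma adjusted p = 0.0576). Gcc1 passed in 5 of the 18 other settings, among them without Scram A, at -0.58 (limma adjusted p = 0.013). The others used all 6 libraries. These were DESeq2, a mean of at least 50, adjustment over placed features and removal of the length trend. In RPM Gcc1 was at -0.19 (limma adjusted p = 0.592). Vps50, a subunit of an endosomal recycling tether, was at 1784 ± 284 and 1614 ± 119, and passed in 1 other setting, with the length trend removed, at -0.42 (limma adjusted p = 0.00857). Ubap1 of ESCRT-I (adjusted p = 0.126), the Golgi gene Vps13b (0.581), Umad1 (0.525) and the vesicle priming gene Unc13b (0.223) did not pass in limma either, and Unc13b was low, at 12.7 to 47.6 in the 6 libraries. Unc13b passed without Scram A, at -1.33 (limma adjusted p = 0.041), after quantile normalisation, at -2.13 (limma adjusted p = 0.016), and with the length trend removed, at -1.43 (limma adjusted p = 0.0147). Ubap1 passed with DESeq2 only (adjusted p = 0.0354).

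**Figure D5:**
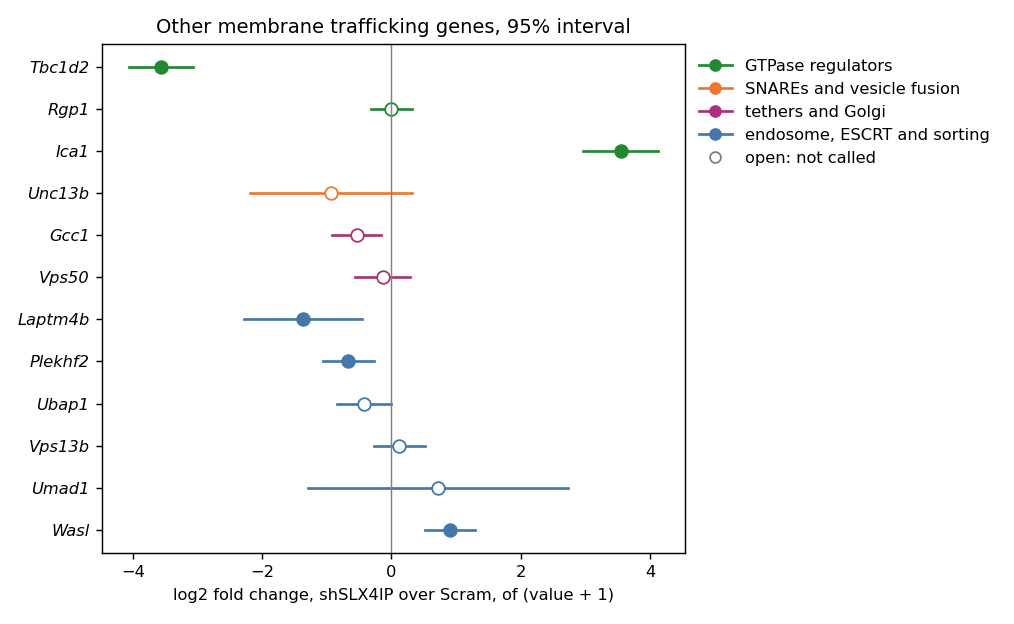
Log2 fold change (shSLX4IP over Scram, horizontal axis) with 95% interval for the 12 other placed membrane trafficking genes tested, coloured by role and filled where adjusted p was under 0.05. Tbc1d2 at -3.56 and Ica1 at 3.55 mark the ends of the range.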

How the data were processed

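Poly(A) RNA of 6 libraries was sequenced. The authors deposited a table of normalised counts, a signal per gene whose values are whole reads times a constant of each library. DESeq2 1.22.1, StringTie 2.1.7, STAR 2.7.7 and fastp 0.19.5, and the build GRCm38 (mm10), are named per the submitters' processing notes. For the annotation release, filters and strand setting the sources used here give nothing. Whole reads were recovered by dividing each column by the value of 1 read. At least 99.97% of values above 0 lay within 0.1 of a whole number. Recovered reads per member and library ran from 658 to 20913.

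Identifiers were matched without version to GENCODE M21 (52093 of 53647). Placed genes lie wholly in 4 segments in which protein-coding genes with a mean of at least 1000 score 3 and others -1 (segment score at least 30), or are mitochondrial. Limma 3.58.1 (R 4.3.3) with an intensity trend tested log2(value + 1), 2-sided, on features with a mean of at least 10, without a block. Fold changes on this scale understate changes of low genes. RPM and leaving out a library used the same test. EdgeR 4.0.16 and DESeq2 1.42.0 were run on recovered reads. The fits were tested on simulated data. The named genes are the 10 members and up to 12 called other genes whose higher group averaged 50 or more. Further genes are named as overlapping a member, as uncalled genes of the list or as markers. The members and lists were chosen with earlier results of these data known. RPM was chosen after the values were seen.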

Additional observations from a re-analysis of the deposited data

How the results depend on the processing

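Over 18 other settings, members called lower numbered 2 after quantile normalisation, 1 with limma without trend, 7 with DESeq2 and, leaving out each library in turn, 1 to 7, against 4. The shares of all features called lower were 15.6%, 9.30%, 20.0% and 5.04% to 19.4%, against 11.3%. Those called higher numbered 0 to 1 leaving out each library in turn, 0 without Scram C or a shSLX4IP library, and 1 otherwise. The shares of all features called higher were 7.89% without Scram C and 5.33% to 5.43% without a shSLX4IP library, against 11.7%. Other trafficking genes called lower were 1 with no filter and with limma without trend, 5 with DESeq2 and with the length trend removed, and 1 to 5 leaving out each library in turn, against 3. The shares called lower were 4.86% with no filter and 32.9% of placed nuclear genes with the length trend removed, beside those above. Other trafficking genes called higher were 1 to 2 leaving out each library, against 5.33% to 23.3% of all features. The causes were not tested. Log2 fold changes that turned sign after quantile normalisation were those of Rab18 (0.023), Sdcbp (0.24), Chmp5 (0.26), Vps50 (0.19), Ubap1 (0.055) and Rgp1 (0.35). In RPM they were Sdcbp (0.040), Chmp5 (0.11), Vps50 (0.21) and Rgp1 (0.34). With the length trend removed they were Chmp5 (0.18) and Vps13b (-0.36). Leaving out each library in turn, Chmp5 ran from -0.40 to 0.013 (without Scram A) and Rgp1 from -0.046 to 0.047 (without Scram B; 0.028 without shSLX4IP C), and Rgp1 was at 0.0035 with TMM factors. Of the called members, Snx30 kept its call in 18 settings, Stx17 in 14, Rab2a in 12, Golph3 in 10 and Rab18 in 8. Over all features, limma called 1872, edgeR 1566 and DESeq2 3226, the last 2 on recovered reads. No paired analysis was possible because the columns carry letters that no label ties to the replicate numbers. Each member had at least 658 reads in a library, and the part of depth in the results was not tested.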
